A study of Mus musculus with 16 samples.

Results

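Interferon-stimulated genes are the genes that a cell switches on when an interferon binds its receptor, and 30 of them were followed here in whole testes and ovaries of germ-free (GF) and conventionally raised (CV) mice. They were taken by symbol from a table of read counts over exons that holds 38087 genes, and each of the 30 symbols matched 1 row. GF mice are raised without microbes and CV mice carry a normal gut microbiota. All were C57BL/6j mice of 15 to 16 weeks, fed freely and sampled between 2 and 4 h of zeitgeber time, which counts hours from lights on. The libraries were made from total RNA and fell into 4 groups: 5 GF ovaries, 4 CV ovaries, 3 GF testes and 4 CV testes. Ovary and testis came from females and males, so tissue and sex cannot be told apart. No label says whether each library is a different animal, and every p-value given here reflects library-to-library spread that may be technical.

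The ovary libraries held 13294039 to 15907297 counts each in the GF group and 12912251 to 15141027 in the CV group. The testis libraries were deeper, with 26015487 to 27188919 counts in the GF group and 25880591 to 28266867 in the CV group. Ovary libraries also varied more among themselves: edgeR's common biological coefficient of variation was 18.5% for them and 4.17% for testis libraries. Nnt, a mitochondrial transhydrogenase gene whose intact or deleted form separates C57BL/6 substrains, was higher in GF than in CV mice in the ovary (log2 fold change 1.09, adjusted p = 0.000391, edgeR) and in the testis (0.38, adjusted p = 4.32e-10, edgeR). The labels name no colony, so the source of the mice and their microbiota status cannot be told apart in any GF to CV comparison.

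Type I interferons act through the receptor chains Ifnar1 and Ifnar2 and the kinases Jak1 and Tyk2 to form a complex that holds Stat2 and Irf9 and binds a DNA motif called the interferon-stimulated response element (ISRE). Interferon gamma acts through Ifngr1 and Ifngr2 and leads to binding at another motif, the gamma-activated site (GAS). The genes so induced block viral RNA and protein synthesis, attack the vacuoles of intracellular microbes and call in T cells. Many cells keep a low level of these genes without infection, and microbes in the gut are known to help set that level in immune cells.

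The promoters of the members were searched for both motifs. Both are textbook elements of interferon-stimulated genes, so a high share among members chosen as such genes is not independent of that choice. RefSeq windows of GRCm38.p6, from 250 bases before the gene start to 50 bases from it on, were on hand for 21 of the 30 members. The ISRE core was taken as GAAANNGAAA and the GAS core as TTCNNNGAA, both read on either strand with overlapping matches allowed. The ISRE core was found in 14 of the 21 members, or 66.7%, against 3.99% of the 27025 genes with a window. The GAS core was found in 6 of the 21, or 28.6%, against 9.55% of all genes with a window. A match describes the letters in the window and is not evidence of binding there.

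The members' levels differed widely. Per kilobase of exon, Bst2 (tetherin, which holds budding virus particles at the cell surface) had the highest level in all 4 groups, at 63.6 ± 8.06 CPM per kb in GF ovaries, 66.5 ± 3.39 in CV ovaries, 2.54 ± 0.192 in GF testes and 2.94 ± 0.699 in CV testes (SD, n = 5, 4, 3 and 4). Ifi27l2a, a small hydrophobic protein, came next in the ovary at 43.8 ± 28.4 in GF and 41.2 ± 17.7 CPM per kb in CV libraries, with a far wider spread between libraries than Bst2. Gbp2, a guanylate-binding GTPase, followed at 19.1 ± 3.6 in GF and 14.2 ± 2.36 CPM per kb in CV ovaries. The T cell attractant Cxcl9 was the lowest in the ovary, at 0.486 ± 0.221 in GF and 0.183 ± 0.0807 CPM per kb in CV libraries. In the testis the lowest were Isg15 in the GF group, at 0.0457 ± 0.0396 CPM per kb, and Ifi44 in the CV group, at 0.0295 ± 0.0259 CPM per kb.

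**Figure D1:**
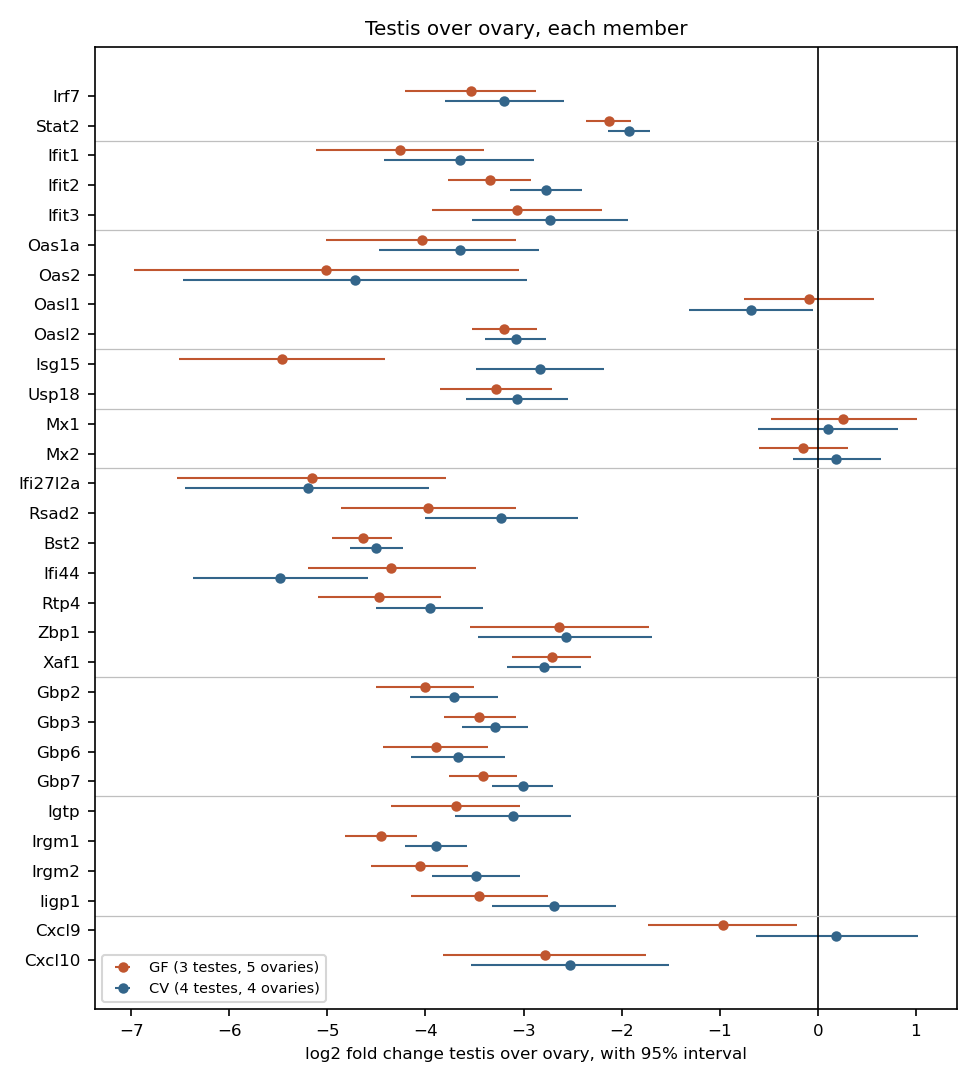
Log2 fold change of testis over ovary for each member, with 95% intervals, in GF libraries (3 testes, 5 ovaries, drawn above) and in CV libraries (4 testes, 4 ovaries, drawn below), grouped by role. Points lie far below 0 for most members, with medians of -3.49 in GF and -3.10 in CV, while Mx1 and Mx2 have intervals that include 0 in both groups, as Oasl1 has in GF and Cxcl9 in CV.

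Most members were far lower in testis than in ovary. By edgeR's quasi-likelihood test with Benjamini-Hochberg adjustment, 27 of the 30 were called lower in GF testes than in GF ovaries and 26 of the 30 in CV testes than in CV ovaries, and none was called higher. Oas1a, Oas2, Isg15, Ifi27l2a, Ifi44 and Cxcl10 had too few counts for a fit of testes alone. They passed the filter on low counts here by their ovary libraries, so their being lower in testis was partly set by that filter. The members' median log2 fold change was -3.49 in GF and -3.10 in CV, against 0.039 and 0.052 for all genes tested. Most genes differ between these tissues: 89.8% of the 21977 tested were called in GF and 90.3% in CV, and 43.7% and 44% were called lower. The difference can be seen in the plot of testis over ovary for each member. Fewer cells of a type that express a gene and less of its RNA per cell cannot be told apart in whole organs.

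The scaling of the libraries moved these values. With total counts as library size in place of TMM factors, the median of all genes shifted to -0.751 in GF and -0.756 in CV, and the members' median to -4.28 and -3.90. Genes called higher and lower then numbered 7825 and 12347 in GF and 7830 and 12458 in CV, against 10123 and 9603 in GF and 10171 and 9668 in CV with TMM. Relative to the median of all genes, the members stayed about as far below it.

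Bst2 illustrates the gap. It stood at 2.48, 2.26 and 2.14 CPM in GF testes and at 62.5, 60.1, 63.0, 56.2 and 45.3 CPM in GF ovaries. In CV mice it stood at 3.02, 3.30, 1.88 and 2.44 CPM in testes and at 58.0, 62.5, 56.9 and 62.9 CPM in ovaries. Every testis lay far under every ovary, with log2 fold changes of -4.64 ± 0.157 in GF and -4.50 ± 0.139 in CV (SE). Ifi27l2a was lower in testes by -5.16 ± 0.697 in GF and -5.20 ± 0.635 in CV. The guanylate-binding proteins Gbp2, Gbp3, Gbp6 and Gbp7 ran from -4.01 to -3.41 in GF and from -3.71 to -3.01 in CV. The immunity-related GTPases Igtp, Irgm1, Irgm2 and Iigp1 ran from -4.45 to -3.45 in GF and from -3.89 to -2.69 in CV.

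Mx1, Mx2 and Oasl1 were not called in either group with TMM factors. Mx1, a dynamin-like antiviral GTPase that many laboratory strains carry in a defective form, stood at 3.06, 2.85 and 3.41 CPM in GF testes and at 2.60, 2.76, 2.54, 1.5 and 3.49 CPM in GF ovaries. In CV mice it stood at 3.55, 4.03, 3.50 and 1.95 CPM in testes and at 1.76, 6.03, 2.87 and 1.40 CPM in ovaries, where library CV2 was the highest. The groups overlapped, with log2 fold changes of 0.26 ± 0.378 in GF (adjusted p = 0.512) and 0.10 ± 0.365 in CV (adjusted p = 0.787, edgeR). Without ovary CV2 the CV value of Mx1 was 0.70 with an adjusted p of 0.0354, and with total counts as library size the sign turned, to -0.52 in GF and -0.70 in CV.

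Mx2, its neighbour on chromosome 16, is annotated as a polymorphic pseudogene in GENCODE M21 and had log2 fold changes of testis over ovary of -0.15 ± 0.232 in GF and 0.19 ± 0.228 in CV. Its adjusted p was 0.551 in GF and 0.422 in CV (edgeR), and total counts as library size gave -0.93 in GF and -0.61 in CV, both called lower (adjusted p = 0.00109 in GF and 0.0169 in CV). Oasl1, a catalytically inactive relative of the oligoadenylate synthetases that restrains Irf7 translation in mice, had -0.09 ± 0.337 in GF and -0.68 ± 0.322 in CV. Its adjusted p was 0.797 in GF and 0.0546 in CV (edgeR). With total counts as library size the GF value of Oasl1 was also called, at -0.88 with an adjusted p of 0.0196 (edgeR). Leaving out ovary CV1, CV3 or CV4 or ovary GF2 brought the CV value of Oasl1 under the threshold, with an adjusted p between 0.0154 and 0.0446, as did total counts as library size at 0.000275 and no filter on low counts at 0.0469. Cxcl9 was called lower in GF testes (-0.97 ± 0.388, adjusted p = 0.026, edgeR) and not in CV testes (0.19 ± 0.422, adjusted p = 0.668), and the CV sign turned with total counts as library size, to -0.61. That GF call was lost without ovary GF3 (adjusted p = 0.0826), testis GF1 (0.131) or testis GF2 (0.0751), with RLE size factors (0.0517) and in DESeq2 (0.0616).

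Markers of other cells also differed between the tissues. The 5 general leukocyte markers summed to 8.45 to 15.7 CPM in GF testes and 49.9 to 99.2 CPM in GF ovaries, and to 10.2 to 13.5 CPM in CV testes and 75.5 to 109 CPM in CV ovaries. The 7 endothelial markers summed to 35.9 to 43.1 CPM in GF testes and 338 to 378 CPM in GF ovaries, and to 36.4 to 40.3 CPM in CV testes and 289 to 367 CPM in CV ovaries. The sums of lymphocyte markers went the other way, though many single markers did not. T and NK cell markers summed to 19.1 to 20.9 CPM in GF testes and 7.56 to 12.9 CPM in GF ovaries. In CV mice they summed to 22.4 to 26.0 CPM in testes and 6.23 to 10.1 CPM in ovaries. Of 10 tested, edgeR called 7 lower and 2 higher in GF testes, and 4 lower and 2 higher in CV testes. Of all genes tested, 43.7% were called lower in GF and 44% in CV. Markers of B and plasma cells summed to 13.6 to 16.4 CPM in GF testes and 2.26 to 5.41 CPM in GF ovaries. In CV mice they summed to 12.3 to 13.0 CPM in testes and 5.55 to 8.47 CPM in ovaries. Of 5 tested, 2 were called lower and 2 higher in GF testes, and 3 lower and 2 higher in CV testes. The 5 spermatid markers reached 15200 to 17000 CPM over all testes and at most 1.52 CPM in any ovary. Their part in the members' tissue difference was not tested.

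**Figure D2:**
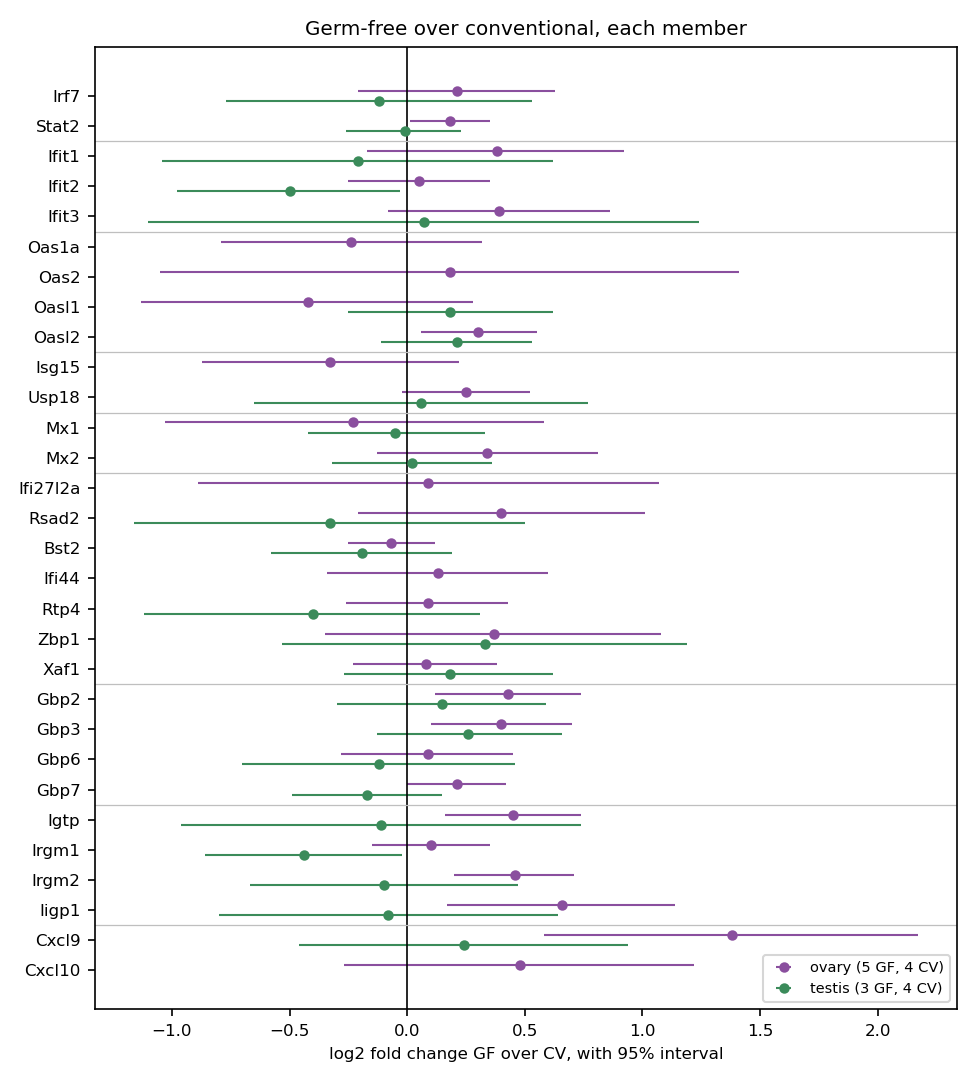
Log2 fold change of GF over CV for each member, with 95% intervals, in the ovary (5 GF, 4 CV) and in the testis (3 GF, 4 CV), grouped by role. In the ovary 25 of 30 points lie above 0, with Cxcl9 the farthest at 1.38, and in the testis the 24 members tested scatter around 0 with a median of -0.06.

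In the ovary, most members had log2 fold changes of GF over CV above 0, from -0.42 for Oasl1 to 1.38 for Cxcl9, but no member passed the adjusted threshold. Of the 30 members, 25 had a log2 fold change of GF over CV above 0 and 5 below, with a median of 0.21 against 0.006 for the 18095 genes tested, of which 51.7% lay above 0. By edgeR, 0 of the 30 were called, against 0.177% of all genes tested, and the smallest adjusted p was 0.508. DESeq2 and limma-voom also called 0. At an unadjusted p under 0.05 stood 7 members, all with GF higher, against 2.93% of all genes tested. The 30 values come from the same 9 libraries and are not independent of each other.

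A fit with the replicate number as a block treats same-numbered ovary libraries as pairs and leaves out GF5, which has no partner. It called 91 genes in the ovary against 32 without the block, and 0 members were called in both fits. In that blocked fit 22 members lay above 0 and the median was 0.15. Without library CV2 the median was 0.36 with 28 members above 0, and without GF5 it was 0.16 with 21 above 0.

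The immunity-related GTPases, which disrupt the vacuoles of intracellular parasites and bacteria, had log2 fold changes from 0.10 to 0.66 in the ovary. Igtp and Irgm2 are neighbours on the plus strand of chromosome 11, and their RefSeq promoter windows (GRCm38.p6) are printed here because both hold a GAS core shortly before an ISRE core, which is in capitals. In Igtp, at chr11:58199306-58199605, the GAS core starts at position -45 from the gene start and the ISRE core at -34. In Irgm2, at chr11:58214727-58215026, they start at -75 and -64.
Igtp: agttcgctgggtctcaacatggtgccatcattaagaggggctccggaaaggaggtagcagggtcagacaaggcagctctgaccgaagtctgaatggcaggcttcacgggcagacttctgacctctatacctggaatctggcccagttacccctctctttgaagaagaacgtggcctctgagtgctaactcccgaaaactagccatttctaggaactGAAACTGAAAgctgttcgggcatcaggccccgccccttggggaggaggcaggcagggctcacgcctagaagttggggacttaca
Irgm2: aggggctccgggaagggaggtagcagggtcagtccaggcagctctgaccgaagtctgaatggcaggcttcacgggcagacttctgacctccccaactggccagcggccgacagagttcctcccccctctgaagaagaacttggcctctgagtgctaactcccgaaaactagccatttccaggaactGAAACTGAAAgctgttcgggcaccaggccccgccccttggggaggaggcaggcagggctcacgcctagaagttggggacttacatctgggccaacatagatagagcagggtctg

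Igtp stood at 15.1, 15.4, 23.2, 14.6 and 14.2 CPM in GF ovaries and at 12.6, 12.6, 12.2 and 10.7 CPM in CV ovaries. Every GF ovary was above every CV ovary, and Igtp was the only member whose groups did not overlap, against 1.33% of all genes tested that did so with GF higher. Its mean was 16.5 ± 3.76 CPM in GF and 12.0 ± 0.899 CPM in CV libraries (SD), a log2 fold change of 0.45 ± 0.148 (SE; unadjusted p = 0.0112, adjusted p = 0.626, edgeR). Irgm2 stood at 51.0, 42.7, 69.2, 47.7 and 49.2 CPM in GF ovaries and at 38.6, 42.9, 36.6 and 33.3 CPM in CV ovaries. The groups met at their edges, where GF2 lay just under CV2. The log2 fold change of Irgm2 was 0.46 ± 0.132 (unadjusted p = 0.00598, adjusted p = 0.508, edgeR). The annotated models of Igtp and Irgm2 overlap on the same strand, so their counts may share reads.

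Iigp1, an effector GTPase that coats parasite vacuoles, stood at 32.3, 22.2, 48.0, 21 and 28.2 CPM in GF ovaries and at 21.8, 22.5, 16.2 and 16.3 CPM in CV ovaries. GF3 was the highest by far and the groups overlapped at GF2 and GF4. Its log2 fold change was 0.66 ± 0.246 (unadjusted p = 0.0253, adjusted p = 0.699, edgeR). Irgm1, which regulates the other GTPases and autophagy, had 36.5 ± 7.06 CPM in GF and 34 ± 3.48 CPM in CV ovaries, with a log2 fold change of 0.10 ± 0.129 that was -0.03 without GF3.

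The guanylate-binding proteins, large GTPases that assemble on pathogen membranes, had log2 fold changes from 0.09 to 0.43. Gbp2 and Gbp3 lie together on the plus strand of chromosome 3, and their windows at chr3:142620413-142620712 and chr3:142559794-142560093 are shown because they are the 2 family members with an unadjusted p under 0.05. A further window of Gbp3, at chr3:142560106-142560405, holds neither core and is not shown. In the windows shown, the ISRE cores, in capitals, start at -59 in Gbp2 and at -45 and -39, overlapping, in Gbp3, all on the opposite strand, and neither window holds the GAS core.
Gbp2: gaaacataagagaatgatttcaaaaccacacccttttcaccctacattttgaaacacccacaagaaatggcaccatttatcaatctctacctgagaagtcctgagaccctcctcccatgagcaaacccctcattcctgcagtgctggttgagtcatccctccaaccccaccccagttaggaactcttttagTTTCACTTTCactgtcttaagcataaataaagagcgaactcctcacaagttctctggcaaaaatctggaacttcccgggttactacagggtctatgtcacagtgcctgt
Gbp3: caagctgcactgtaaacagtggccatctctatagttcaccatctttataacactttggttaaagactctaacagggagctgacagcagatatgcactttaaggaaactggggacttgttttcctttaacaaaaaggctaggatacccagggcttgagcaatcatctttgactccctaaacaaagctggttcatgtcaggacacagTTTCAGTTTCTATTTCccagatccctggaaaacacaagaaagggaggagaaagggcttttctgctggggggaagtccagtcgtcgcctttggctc

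Gbp2 stood at 47.7, 47.3, 58.1, 33.9 and 53.1 CPM in GF ovaries and at 28.3, 42.7, 37.0 and 34.9 CPM in CV ovaries. Only GF4 fell within the CV range. The log2 fold change was 0.43 ± 0.159 (unadjusted p = 0.023, adjusted p = 0.699, edgeR). Gbp3 stood at 25.9, 21.2, 30.6, 18.2 and 29.8 CPM in GF ovaries and at 21.9, 19.1, 16.5 and 18.8 CPM in CV ovaries, with a log2 fold change of 0.40 ± 0.155 (unadjusted p = 0.0266, adjusted p = 0.706, edgeR). Here GF2 and GF4 lay within the CV range. Gbp7 had 47.5 ± 7.49 CPM in GF and 41.0 ± 2.59 CPM in CV ovaries, and Gbp6 had 15.5 ± 3.61 and 14.6 ± 3.11 CPM in GF and CV ovaries. The row named Gbp6 has an identifier that GENCODE M21 names Gm43302, a model that overlaps Gbp6 and Gbp10 on the same strand, so its counts may hold reads of those genes.

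Cxcl9, which attracts activated T cells through Cxcr3 and is induced mainly by interferon gamma, had the largest fold change of the members in the ovary. It stood at 1.37, 1.41, 2.54, 0.693 and 1.32 CPM in GF ovaries and at 0.726, 0.794, 0.299 and 0.393 CPM in CV ovaries. Those levels rest on 12 to 45 counts per GF library and 5 to 15 per CV library. All GF ovaries but GF4 were above all CV ovaries, with a log2 fold change of 1.38 ± 0.406 (unadjusted p = 0.00623, adjusted p = 0.512, edgeR). Cxcl10, a ligand of the same receptor, had 1.90 ± 0.63 CPM in GF and 1.35 ± 0.827 CPM in CV ovaries, with a log2 fold change of 0.48 ± 0.381. Cxcl10 lies within Art3 on the other strand, and whether counting used strand is not given in the sources used here.

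**Figure D3:**
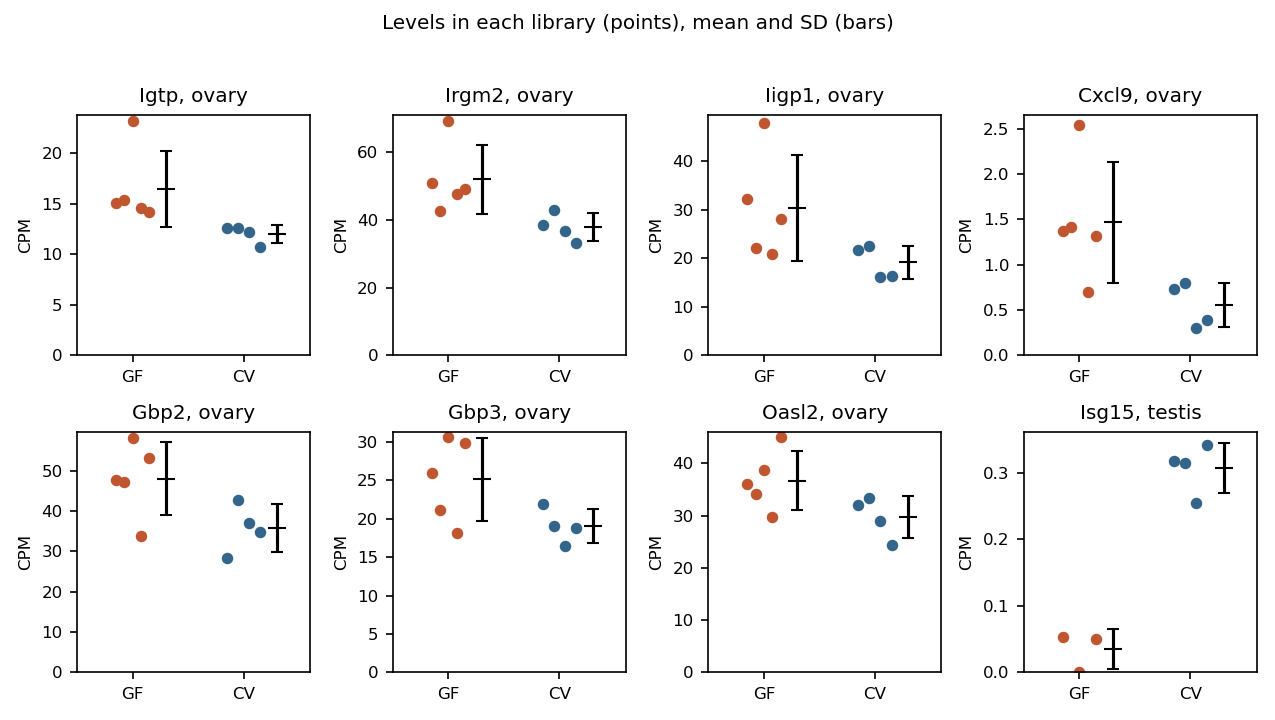
CPM in each library (points) with mean and SD (bars) for the 7 members with an unadjusted p under 0.05 in the ovary and for Isg15 in the testis, with GF left of CV and each axis starting at 0. Every GF point of Igtp lies above every CV point, GF3 is the highest GF point for all ovary genes shown but Oasl2, and the GF points of Isg15 in the testis lie between 0 and 0.0527 CPM.

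The tetratricopeptide proteins Ifit1, Ifit2 and Ifit3, which bind viral RNA and hold back its translation, had log2 fold changes of 0.38 ± 0.279, 0.05 ± 0.155 and 0.39 ± 0.238 in the ovary, none with an unadjusted p under 0.05. Ifit1 and Ifit3, on the plus strand of chromosome 19, had the most closely matched deviations over the ovary libraries of any pair of members. Their windows, at chr19:34640639-34640938 and chr19:34583279-34583578, each hold 2 ISRE cores on the opposite strand, in capitals, which start at -104 and -85 in Ifit1 and at -156 and -122 in Ifit3.
Ifit1: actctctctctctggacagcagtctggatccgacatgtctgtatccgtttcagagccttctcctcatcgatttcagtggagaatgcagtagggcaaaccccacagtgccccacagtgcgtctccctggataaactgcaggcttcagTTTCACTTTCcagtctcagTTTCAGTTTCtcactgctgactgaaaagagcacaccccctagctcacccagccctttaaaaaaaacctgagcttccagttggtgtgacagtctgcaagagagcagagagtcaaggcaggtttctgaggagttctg
Ifit3: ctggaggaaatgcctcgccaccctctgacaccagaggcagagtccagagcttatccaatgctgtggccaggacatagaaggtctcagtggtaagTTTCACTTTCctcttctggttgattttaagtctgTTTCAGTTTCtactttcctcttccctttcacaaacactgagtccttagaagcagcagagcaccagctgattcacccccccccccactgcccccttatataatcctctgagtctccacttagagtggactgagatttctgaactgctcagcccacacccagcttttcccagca

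Ifit1 stood at 11.8, 8.51, 11.6, 6.99 and 15.2 CPM in GF ovaries and at 11.5, 10.3, 5.99 and 5.50 CPM in CV ovaries. Ifit3 stood at 10.9, 6.99, 11.3, 6.29 and 11.6 CPM in GF ovaries and at 9.43, 8.26, 5.45 and 5.56 CPM in CV ovaries. For both genes GF1, GF3 and GF5 were the high GF libraries and CV3 and CV4 the low CV ones, so the groups overlapped. Ifit3 has a near copy, Ifit3b, and reads could be split between them.

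The transcription factors of the pathway were similar in both ovary groups. Irf7, which drives the later wave of type I interferon, had 11.9 ± 2.90 CPM in GF and 10.3 ± 2.69 CPM in CV ovaries, with a log2 fold change of 0.21 ± 0.213. Stat2 had 28.3 ± 2.54 CPM in GF and 25 ± 2.41 CPM in CV ovaries, with 0.18 ± 0.0877. Irf7 overlaps Phrf1 on the other strand, so without strand in the counting reads of the pair could be mixed, and the same holds for Rtp4 and Masp1.

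The oligoadenylate synthetases, which make the second messenger that activates RNase L, split in sign. Oasl2 stood at 36.0, 34.1, 38.7, 29.7 and 45.0 CPM in GF ovaries and at 32.0, 33.4, 29.0 and 24.4 CPM in CV ovaries. All GF ovaries but GF4 were above all CV ovaries, with a log2 fold change of 0.30 ± 0.125 (unadjusted p = 0.034, adjusted p = 0.744, edgeR). Oas2 stood at 5.01, 7.34, 5.02, 3.29 and 18.5 CPM in GF ovaries and at 6.84, 14.4, 3.29 and 3.03 CPM in CV ovaries. Its log2 fold change of 0.18 ± 0.628 became -0.42 without GF5. Oas1a and Oasl1 had -0.24 ± 0.282 and -0.42 ± 0.361, and both turned to the other sign without CV2, at 0.20 and 0.08.

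Isg15, the ubiquitin-like modifier that is joined to proteins during the response, stood at 1.47, 2.00, 2.25, 1.15 and 2.02 CPM in GF ovaries and at 2.44, 3.02, 2.22 and 1.24 CPM in CV ovaries, with overlapping groups and a log2 fold change of -0.33 ± 0.277. Usp18, which removes Isg15 from proteins and damps the type I receptor, had 7.97 ± 1.06 CPM in GF and 6.70 ± 0.929 CPM in CV ovaries, a log2 fold change of 0.25 ± 0.138. Mx1 and Mx2 had -0.23 ± 0.410 and 0.34 ± 0.239, and the value of Mx1 was 0.36 without CV2.

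Of the 7 other effectors, 6 had log2 fold changes above 0, with a median of 0.09. Rsad2 (viperin, which makes a chain-terminating nucleotide) had 7.81 ± 2.26 CPM in GF and 5.91 ± 2.79 CPM in CV ovaries, a log2 fold change of 0.40 ± 0.312. Zbp1, a sensor of left-handed nucleic acid that triggers cell death, had 0.37 ± 0.365. Ifi44, Rtp4, Xaf1 and Ifi27l2a lay between 0.08 and 0.13, and Bst2 at -0.07 ± 0.0937. Ifi27l2a varied most among them, from 8.37 to 39.0 CPM over GF ovaries and from 11.1 to 30.5 CPM over CV ovaries. Over all members, 8 of the 25 above 0 and 4 of the 5 below 0 took the other sign when some 1 library was left out, and Isg15 was the member that stayed below 0 in each of those fits.

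In the testis the members showed no common direction between GF and CV mice, and 24 of the 30 had enough counts to be tested. By edgeR, 0 of the 24 were called, against 8.08% of the 20269 genes tested, and DESeq2 and limma-voom also called 0. At an unadjusted p under 0.05 stood 2 members, both with GF lower, against 9.71% of all genes tested. Of the 24, 10 had a log2 fold change above 0, against 51.2% of all genes tested. Their median was -0.06 against 0.004, and it was 0.15 without testis CV2, 0.03 without GF1 and 0.01 in limma-voom.

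Ifit2 stood at 1.48, 1.13 and 1.27 CPM in GF testes and at 1.59, 2.36, 1.42 and 2.05 CPM in CV testes. GF1 lay just above CV3 and the other GF testes lay below all CV testes, with a log2 fold change of -0.50 ± 0.243 (unadjusted p = 0.0452, adjusted p = 0.241, edgeR). Irgm1 stood at 1.32, 1.67 and 1.98 CPM in GF testes and at 2.38, 2.77, 2.03 and 1.95 CPM in CV testes, again with 1 GF library inside the CV range. Its log2 fold change was -0.44 ± 0.215 (unadjusted p = 0.049, adjusted p = 0.254, edgeR). Members with an unadjusted p under 0.05 in the ovary went both ways in the testis. Igtp had -0.11 ± 0.433, Irgm2 -0.10 ± 0.291 and Iigp1 -0.08 ± 0.369 there. Cxcl9 had 0.24 ± 0.357, and Gbp3, Oasl2 and Gbp2 had 0.26, 0.21 and 0.15. None of them was called in the test of a difference between the tissues.

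Isg15 gave the clearest separation in the testis, at very low counts. It lies on the minus strand of chromosome 4, and its window at chr4:156200769-156201068 is shown because it holds a run of 3 overlapping ISRE cores, in capitals, that start at -78, -72 and -66 on the strand of the gene.
Isg15: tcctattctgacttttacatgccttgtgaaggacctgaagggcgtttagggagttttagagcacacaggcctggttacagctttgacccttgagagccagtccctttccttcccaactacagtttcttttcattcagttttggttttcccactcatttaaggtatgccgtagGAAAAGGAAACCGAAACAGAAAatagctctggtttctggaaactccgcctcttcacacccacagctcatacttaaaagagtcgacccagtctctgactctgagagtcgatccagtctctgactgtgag

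The GF testes held 1, 0 and 1 counts of Isg15 and the CV testes 6, 6, 5 and 7, which correspond to 0.0527, 0 and 0.0509 CPM in GF and 0.318, 0.314, 0.254 and 0.341 CPM in CV. Every GF testis was below every CV testis, which was also the case for 10.6% of all genes tested in the testis. Over each group, 2 counts in GF against 24 in CV gave a ratio of 0.11 after adjusting for depth, and its exact 95% interval from counting error ran from 0.0127 to 0.445. An exact two-sided permutation test of the CPM values gave p = 0.0571, the smallest that the 35 splits allow, and 0.343 after Benjamini-Hochberg adjustment over the 6 members left out by the filter. In edgeR without a filter on low counts Isg15 was called lower, with a log2 fold change of -2.94 and an adjusted p of 0.031, and in the joint fit of all 4 groups it had -2.95 and an adjusted p of 0.0843. The Isg15 values in GF testes lie under the 3 counts taken as the floor of detection, so a level there is not told from 0 at this depth.

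The other 5 untested members had ratios of GF over CV between 0.64 for Oas1a and 2.46 for Ifi44. Ifi44 rested on 26 counts in GF testes and 14 in CV testes, with an interval of 1.24 to 5.1 and an exact permutation p of 0.171. The intervals of Oas1a, Oas2, Ifi27l2a and Cxcl10 all included a ratio of 1.

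The difference between the tissues in their GF to CV contrast was tested over all 16 libraries as the testis log2 fold change less the ovary one. Of the 30 members, 0 were called by edgeR, against 0.132% of the 21977 genes tested, and 2 had an unadjusted p under 0.05, both negative, against 4.01% of all genes. DESeq2 and limma-voom called 0 as well. The value was above 0 for 5 members, against 46.4% of all genes, and below 0 for 25, with a median of -0.32 against -0.019 for all genes, and that median ran from -0.47 without testis CV3 to -0.16 without testis CV2. Oas1a, Oas2, Isg15, Ifi27l2a, Ifi44 and Cxcl10, left out of the testis fit, passed the filter on low counts here by their ovary libraries. Isg15, with 2 counts over the GF testes and 24 over the CV testes, had -2.63 ± 0.765 (unadjusted p = 0.00318, adjusted p = 0.342, edgeR). Irgm1 had -0.56 ± 0.245 (unadjusted p = 0.0364, adjusted p = 0.672, edgeR). Cxcl9 had -1.16 ± 0.574 (unadjusted p = 0.0587, adjusted p = 0.737, edgeR).

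**Figure D4:**
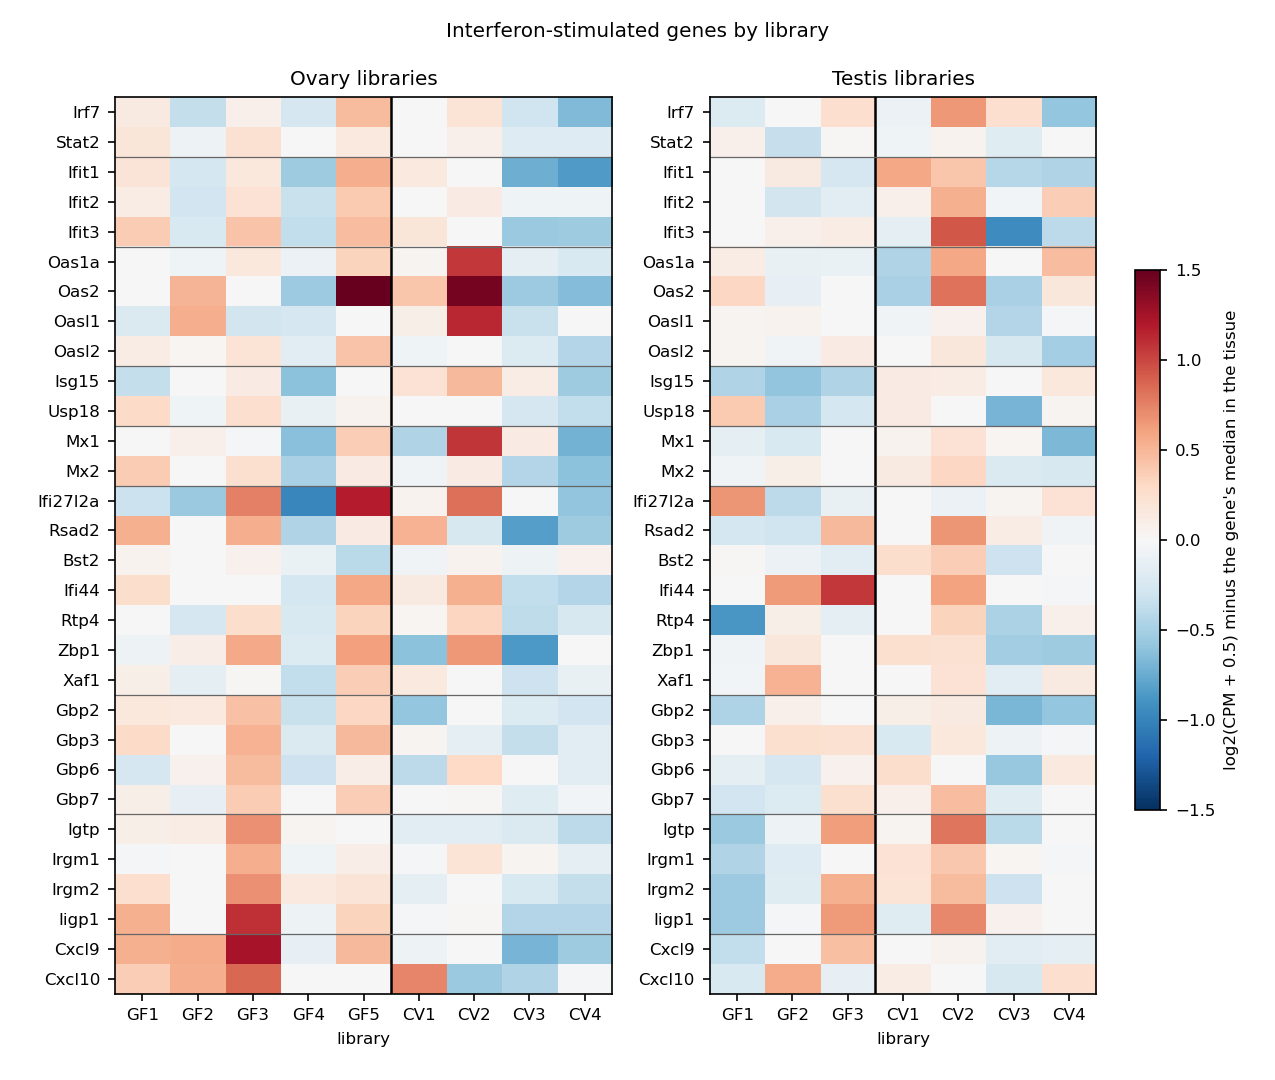
Log2(CPM + 0.5) of each member in each library, less the gene's median in that tissue, for 9 ovary libraries (left) and 7 testis libraries (right), with GF left of CV in each and rows grouped by role. Some columns shift as a whole: GF3 and GF5 are mostly above and GF4, CV3 and CV4 mostly below the median in the ovary, and CV2 mostly above it in the testis.

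Within the ovary groups and among CV testes, many members shifted together in some libraries, as the map of members by library shows. In the ovary, the median deviation of the 30 members from their tissue medians, on the log2(CPM + 0.5) scale, was 0.11, 0, 0.26, -0.23 and 0.34 in GF1 to GF5 and 0, 0.07, -0.27 and -0.36 in CV1 to CV4. In GF5 and in GF3, 26 of the 30 lay above the tissue median, and in GF4 25 lay below it, so the GF ovaries ran from below the median to well above it. CV3 and CV4 were lower than any GF ovary, and CV1 and CV2 lay within the GF range. In the testis it was -0.05, -0.06 and 0 in GF1 to GF3 and 0.02, 0.32, -0.20 and 0 in CV1 to CV4. Testis CV2 stood out with 26 of the 30 above the tissue median, and in CV3 22 lay below it. The GF testes differed little from each other, with 8, 11 and 13 members above the median in GF1 to GF3.

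Deviations from group means, which leave the GF to CV difference out, were also shared. As a description over libraries that share depth and scaling, Pearson's r was positive for 404 of the 435 pairs of members in the ovary, with a median of 0.57 over 9 libraries, and for 356 of 435 in the testis, with a median of 0.37 over 7. Pairs of other genes were not examined for comparison. Ifit1 and Ifit3 had the highest ovary value, 0.96. Pairs of the 8 GTPases of the guanylate-binding and immunity-related families were positive for 28 of 28 in the ovary, with a median of 0.63, and for 27 of 28 in the testis, with a median of 0.73. Bst2 stood apart in the ovary, where its median r with the other members was -0.09, while Ifit3 and Rtp4 had the highest at 0.75.

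Genes around the members in the pathway gave few differences between GF and CV mice. Of 21 interferon genes listed, 17 were in the table and 1, Ifne, an interferon of the reproductive tract, had enough counts to be tested in the ovary. Ifnb1, the founding type I gene, had 0 counts in all 16 libraries, and Ifng had 3 counts over the GF ovaries, 5 over the CV ovaries, 3 over the GF testes and 0 over the CV testes. Among 5 receptor chains, 12 signalling genes and 15 sensing genes tested in the ovary, 0 were called by edgeR in each list, against 0.177% of all genes tested. At an unadjusted p under 0.05 stood 1, 2 and 1 of them, all with GF higher, against 2.93% of all genes tested.

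Irf1, which interferon gamma induces, stood at 43.0 ± 6.96 CPM in GF and 35.6 ± 3.63 CPM in CV ovaries (0.27 ± 0.119, unadjusted p = 0.0462, adjusted p = 0.761, edgeR). Irf9 had 0.01 ± 0.0869 and the feedback inhibitor Socs1 -0.28 ± 0.201. The chains Ifnar1, Ifngr1 and Ifngr2 had 0.06 ± 0.0542, 0.01 ± 0.0870 and 0.12 ± 0.0636. Ifnar2 had 47.3 ± 2.58 CPM in GF and 43.2 ± 0.690 CPM in CV ovaries with ranges that did not overlap (0.13 ± 0.0549, adjusted p = 0.751, edgeR).

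In the testis Ifnar2 lay on the other side, at 6.55 ± 0.085 CPM in GF and 8.02 ± 0.332 CPM in CV libraries, again without overlap (-0.27 ± 0.109, adjusted p = 0.131, edgeR). The difference between the tissues in the Ifnar2 contrast was -0.42 ± 0.0886, with an adjusted p of 0.0843 in edgeR and 0.0496 in DESeq2. Ikbke, a kinase that activates interferon genes, rose in GF testes, at 3.80 ± 0.223 CPM in GF and 2.13 ± 0.200 CPM in CV libraries (0.85 ± 0.172, adjusted p = 0.000649, edgeR), and was the 1 called among 15 sensing genes, where 8.08% of all genes tested were called. Pias1, an inhibitor in the signalling list, fell by 0.14 on the log2 scale in GF testes (SE 0.0332, adjusted p = 0.00459, edgeR) and was the 1 called among 12 signalling genes, a share near that of all genes. The Pias1 call was lost in the joint fit of all 4 groups (edgeR adjusted p = 0.329). Irf9 had 0.45 ± 0.150 in the testis (adjusted p = 0.0545, edgeR), which passed in limma-voom (0.0424), without the filter (0.0432) and without testis CV2 (0.00855).

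Genes that present antigen on MHC class I, which interferons also induce, had log2 fold changes of GF over CV above 0 in the ovary for 14 of 14, against 51.7% of all genes tested, with a median of 0.28. By edgeR 0 of the 14 were called, and 6 had an unadjusted p under 0.05 with GF higher, against 2.93% of all genes. In the testis 6 of the 14 lay above 0, against 51.2% of all genes tested, and 8 below, with a median of -0.12. There 3 lower and 2 higher had an unadjusted p under 0.05, where 9.71% of all genes tested were lower. By edgeR 1 of the 14, Nlrc5, was called in the testis, against 8.08% of all genes tested. Nlrc5, itself 1 of the 14, is the factor that switches these genes on. It stood at 17.3 ± 2.94 CPM in GF and 10.7 ± 2.93 CPM in CV ovaries (0.70 ± 0.185, adjusted p = 0.429, edgeR). In the testis Nlrc5 fell by 0.36 on the log2 scale in GF libraries (SE 0.0921, adjusted p = 0.0128, edgeR), a call lost without testis CV3 (adjusted p = 0.0527) or testis GF3 (0.102) and in the joint fit (0.749). The difference between the tissues in the Nlrc5 contrast was -1.07. By edgeR 0 of the 14 were called in that test, against 0.132% of all genes. Nlrc5 was called there in DESeq2 (adjusted p = 0.00374) and in edgeR without ovary CV2 (adjusted p = 0.0203). Of 44 further interferon-stimulated genes tested in the ovary 24 lay above 0, with a median of 0.06, and 0 were called by edgeR, with 2 at an unadjusted p under 0.05. Of 35 tested in the testis 17 lay above 0, with a median of -0.02, and 0 were called by edgeR, with 6 lower and 1 higher in GF at an unadjusted p under 0.05, where 9.71% of all genes tested were lower.

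Marker genes of other cells went both ways in the ovary. The 5 general leukocyte markers summed to 49.9 to 99.2 CPM in GF and 75.5 to 109 CPM in CV ovaries, with log2 fold changes below 0 for all 5. The 11 macrophage markers summed to 289 to 574 CPM in GF and 400 to 541 CPM in CV ovaries, and 10 of the 11 had values below 0. The 12 T and NK cell markers summed to 7.56 to 12.9 CPM in GF and 6.23 to 10.1 CPM in CV ovaries, with 6 of the 7 tested above 0. The 6 B and plasma cell markers summed to 2.26 to 5.41 CPM in GF and 5.55 to 8.47 CPM in CV ovaries, without overlap. The 7 endothelial markers summed to 338 to 378 CPM in GF and 289 to 367 CPM in CV ovaries, with values above 0 for all 7. The 7 markers listed for plasmacytoid dendritic cells, 1 of which is the member Bst2, summed to 290 to 400 CPM in GF and 302 to 369 CPM in CV ovaries. By edgeR 0 genes of these lists were called in the ovary, and 4 had an unadjusted p under 0.05. Of those 4, 2 endothelial markers were higher in GF, and 1 leukocyte and 1 B and plasma cell marker were lower. Of all genes tested in the ovary, 51.7% lay above 0, 0.177% were called and 2.93% were higher in GF at an unadjusted p under 0.05.

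Between libraries the picture was mixed. Ovary GF3, the highest for most GTPases, also had the highest macrophage sum of the GF ovaries, at 574 CPM, and the highest leukocyte sum, at 99.2 CPM. Ovary GF4, the lowest GF library for most members, had the lowest of both, at 289 and 49.9 CPM. Ovary GF5 was high for most members at sums of 431 and 72.3 CPM, within the range of the other GF ovaries. In the testis, macrophage markers summed to 137 to 146 CPM in GF and 150 to 158 CPM in CV libraries, and T and NK markers to 19.1 to 20.9 CPM in GF and 22.4 to 26.0 CPM in CV libraries, both without overlap. B and plasma cell markers lay the other way there, at 13.6 to 16.4 CPM in GF and 12.3 to 13.0 CPM in CV testes, also without overlap. The sums of leukocyte and of endothelial markers overlapped. Testis log2 fold changes were above 0 for 1 of 11 macrophage, 2 of 6 T and NK and 3 of 3 B and plasma markers tested, against 51.2% of all genes tested. The part of these cells in the members' values was not tested.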

How the data were processed

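The values are whole-number read counts per gene over exons, made by the authors from total RNA. Per the labels' protocols, libraries were stranded and depleted of ribosomal RNA, and per the submitters' processing notes reads were aligned with STAR 2.4.0i to mm10. For the counting step, tool, annotation and strand setting were not given in the sources used here. All 38087 rows of the deposited count table entered library sizes.

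GF and CV were compared within each tissue, and the other contrasts in a fit of all 16 libraries, with edgeR 4.0.16 in R 4.3.3: TMM factors, filterByExpr, a robust quasi-likelihood test and Benjamini-Hochberg adjustment at 0.05 over all genes tested. Each SE is the fold change over the root of its F. The 95% intervals are 1.96 SE, a normal multiplier that is somewhat narrow for so few libraries. An interval can thus exclude 0 at an unadjusted edgeR p above 0.05, as for Stat2 in the ovary. CPM uses TMM factors over all libraries. The fits were tested on simulated counts. Alternatives were RLE factors, DESeq2 1.42.0, limma-voom (limma 3.58.1), no filter, a replicate block, the joint fit, total counts as library size and leaving out each library. Positions are from GENCODE M21 (GRCm38), which matched 36308 rows.

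Same-numbered ovary libraries deviated together (r of 0.376, 0.229, 0.188 and 0.354), a pairing that comes from the data and not from the labels. For GF replicate 3 a CV ovary of another number matched better, with an r of 0.234. All 30 members are named, and of related lists the called genes and a few core ones. The members and lists were chosen with earlier results of these data known.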

Additional observations from a re-analysis of the deposited data

Results flagged for a closer look

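In 8 of 126 groups of 4 or 5 libraries, 1 library stood far from the others by Dixon's test, where chance alone gives about 1 group in 20. Among GF ovaries, GF5 had 18.5 CPM of Oas2 with the next at 7.34, GF2 had 3.17 CPM of Oasl1 with the next at 2.02, and GF3 had 23.2 CPM of Igtp and 48.8 CPM of Irgm1 with the next at 15.4 and 35.7. Among CV ovaries, CV2 had 8.42 CPM of Oas1a, 52.6 CPM of Ifngr1 and 52.4 CPM of Ifngr2 with the next at 3.89, 43.1 and 48.4. Among CV testes, CV2 had 0.419 CPM of Ifi44 with the next at 0.106.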

How the results depend on the processing

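Of 202 single-gene results, 3709 values were recomputed under other settings: 3564 kept their direction and their side of the threshold, 118 changed sign, 18 gained a call and 9 lost one. Most changes of sign were of members near 0. Of the members, 0 were called in the ovary, or in the difference between the tissues, under any setting run, and 1, Isg15, was called in the testis without a filter on low counts. In the testis the same replicate number did not pair the libraries (r of -0.018, 0.042 and -0.027), and the replicate block gave 1692 genes called against 1638. The cause of these changes was not tested.

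Counts of genes called moved more. In the ovary 95 genes were called by DESeq2, 91 with the replicate block and 93 in the joint fit of all 4 groups, against 32. In the testis the joint fit called 122 against 1638, and leaving out 1 library gave 996 to 2084, the lowest without GF2. For the difference between the tissues DESeq2 called 127 against 29, and leaving out 1 library gave 13 to 37, with 13 without testis GF3.

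With the replicate block the ovary log2 fold change was -0.07 for Ifit2, -0.23 for Oas2, -0.35 for Ifi27l2a, 0.01 for Bst2, -0.03 for Xaf1 and -0.04 for Irf9, and the testis value of Mx2 was -0.07. The block gave a difference between tissues of 0.33 for Oas2 and -0.02 for Mx1. Limma-voom gave -0.05 for Ifi27l2a in the ovary and 0.02, 0.01 and 0.01 for Irf7, Ifit1 and Mx1 in the testis. Its differences between tissues were 0.04 for Ifit3, 0.94 for Oas2, -0.05 for Ifi27l2a and 0.03 for Zbp1. The joint fit gave 0 for Mx2 in the testis.

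For testis over ovary, total counts as library size gave medians of -4.28 in GF and -3.90 in CV libraries. Single values were -0.52 for Mx1 and -0.44 for Socs1 in GF, and -0.70 for Mx1, -0.61 for Mx2, -0.61 for Cxcl9 and -0.63 for Socs1 in CV. RLE size factors and DESeq2 each gave 0.06 for Oasl1 and 0 for Mx2 in GF. Leaving out 1 library gave medians from -3.81 to -3.42 in GF and from -3.44 to -2.98 in CV, Oasl1 from -0.17 to 0.12 in GF, and in CV Mx1 from -0.13 to 0.70 and Cxcl9 from 0 to 0.41.

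Leaving out 1 library in the ovary gave these ranges for results that changed sign: Ifit2 -0.05 to 0.13, Oas1a -0.39 to 0.20, Oas2 -0.42 to 0.83, Oasl1 -0.64 to 0.08, Mx1 -0.46 to 0.36, Ifi27l2a -0.29 to 0.41, Bst2 -0.10 to 0.01, Ifi44 -0.01 to 0.36, Rtp4 -0.01 to 0.24, Xaf1 -0.03 to 0.16, Gbp6 -0.05 to 0.23, Irgm1 -0.03 to 0.17, Ifngr1 -0.03 to 0.09, Irf9 -0.03 to 0.06 and Pias1 -0.04 to 0.01. In the testis they were Irf7 -0.38 to 0.22, Stat2 -0.10 to 0.11, Ifit1 -0.46 to 0.15, Ifit3 -0.24 to 0.84, Usp18 -0.44 to 0.32, Mx1 -0.24 to 0.07, Mx2 -0.07 to 0.15, Xaf1 -0.09 to 0.30, Gbp2 0 to 0.32, Gbp6 -0.33 to 0.02, Igtp -0.66 to 0.29, Irgm2 -0.53 to 0.13, Iigp1 -0.52 to 0.19, Cxcl9 -0.18 to 0.51 and Ifnar1 -0.04 to 0.02. For the difference between tissues they were Ifit3 -0.65 to 0.44, Oas2 -0.94 to 1, Oasl2 -0.24 to 0.01, Usp18 -0.71 to 0.06, Mx1 -0.43 to 0.39, Ifi27l2a -0.73 to 0.42, Zbp1 -0.51 to 0.23, Xaf1 -0.18 to 0.20, Cxcl10 -1.27 to 0.11 and Irf1 -0.19 to 0.12.

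Counts were few for some members in the testis: 6 had too few to be tested, and Isg15 rests on 2 counts over the GF testes.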
